A study of Mus musculus with 4 samples.

Results

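The chromatin around 10 genes of the Notch pathway was described from the ATAC-seq of primary osteoblasts with and without the TET enzymes. The genes were the receptors *Notch1*, *Notch2*, *Notch3* and *Notch4*, the ligands *Jag1* and *Jag2*, and the target genes *Hes1*, *Hey1*, *Hey2* and *Heyl*. A region of the count table was taken as part of a locus when it overlapped the gene or the 25 kb on either side of it in the GENCODE M21 annotation of GRCm38. This rule used positions only and gave 186 of the 255864 regions in the table. All 186 were counted, with no further filter on low values. The table itself, however, holds only regions with a called peak summit. Of its regions, 145301 had a summit in both genotypes, 84395 in WT only and 26168 in TCKO only.

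Notch receptors sit in the cell membrane and bind Jagged or Delta-like ligands on a neighbouring cell. Binding exposes the receptor to ADAM proteases and then to gamma-secretase, which frees the intracellular domain. In the nucleus this domain joins the DNA-binding protein RBPJ and Mastermind coactivators and switches on target genes, above all those of the Hes and Hey families of repressors. In the osteoblast lineage Notch signalling is known for holding back differentiation, and inherited changes in Notch receptors and ligands cause skeletal disorders.

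WT mice (C57BL/6, 3 days old) were compared with TCKO mice of the same strain and age, in which a Prx1-Cre transgene acted on fl/fl (loxP-flanked) alleles of *Tet1*, *Tet2* and *Tet3*. The TET enzymes oxidise 5-methylcytosine, a step in DNA demethylation. Prx1-Cre is driven by a mesenchymal enhancer that is active in limb buds and part of the skull, so the deletion need not reach every cultured cell. Whether WT animals carried floxed alleles or Cre was not stated. Per the study's methods the osteoblasts came from digested calvarial bone, that is the skull vault, and were plated in culture. The labels name 2 samples per genotype, 4 in all, but the count table has 1 merged column per genotype, so no spread between replicates and no test of genotype could be had. Every difference below compares 2 merged columns. A merged library also cannot tell a site that is open in fewer cells from a site that is less open in each cell.

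The table held 56898657 reads in WT and 34608167 in TCKO. TCKO counts were multiplied by 1.64 to match the WT total, 1 count was added to each, and the log2 ratio of TCKO over WT was taken, so that values below 0 mean fewer scaled reads in TCKO. Each interval is a 95% interval by the Wilson method, computed on the part of the reads that came from TCKO. It covers counting error only, because each genotype has 1 merged column. Without molecular identifiers 2 reads may be copies of the same molecule, so even the counting error may be larger than the interval shows. The median ratio was 0.06 over all regions and -0.02 over the 19871 protein-coding loci built with the same 25 kb rule. Among markers of the labelled cell type, promoters of 10 of 10 osteoblast genes held a region. These included *Runx2* with 1768 WT reads and *Col1a1* with 1375. The summed ratio of the 10 was -0.07, and single genes ran from -0.43 at *Dlx5* to 0.72 at *Spp1*. Of 9 endothelial genes 6 had a promoter region, with 1775 WT reads in all and a summed ratio of 0.12, and *Tie1*, *Emcn* and *Sox18* had none. Promoters of 7 of 7 mural cell genes held 5977 WT reads (summed ratio -0.19, from -0.42 at *Cspg4* to 0.19 at *Abcc9*). For macrophage genes it was 4 of 7, with 434 WT reads, a summed ratio of 0.38 and no region at *Fcgr1*, *Ptprc* or *Mpeg1*. Of these 4, *Csf1r* (0.999) and *Cd68* (0.42) were above 0, and *Spi1* (-0.41) and *Adgre1* (-0.06) were below it. The part of these cells in the ratios below was not tested.

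The target genes are the usual readout of the pathway, so DNA of 3 of the 4 at which RBPJ letters were found is shown first. Capitals mark every match to the RBPJ consensus GTGGGAA or to its 6-base core TGGGAA, on either strand. The first 2 sequences are the central 200 bp of a region on the plus strand of GRCm38. The last is the RefSeq promoter window of *Hey2* (GRCm38.p6, minus strand), which runs from 250 bases before the start to 50 after it.
*Hes1* promoter region (chr16:30065168-30065367): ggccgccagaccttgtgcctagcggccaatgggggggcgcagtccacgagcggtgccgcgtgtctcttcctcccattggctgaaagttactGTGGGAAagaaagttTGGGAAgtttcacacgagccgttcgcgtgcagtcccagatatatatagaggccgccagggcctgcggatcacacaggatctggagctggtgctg
*Heyl* intron 1 region (chr4:123239583-123239782): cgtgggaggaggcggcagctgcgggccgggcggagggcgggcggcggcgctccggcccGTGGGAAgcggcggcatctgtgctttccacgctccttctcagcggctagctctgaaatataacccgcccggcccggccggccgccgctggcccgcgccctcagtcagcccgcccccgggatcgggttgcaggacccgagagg
*Hey2* promoter window (chr10:30842734-30843033): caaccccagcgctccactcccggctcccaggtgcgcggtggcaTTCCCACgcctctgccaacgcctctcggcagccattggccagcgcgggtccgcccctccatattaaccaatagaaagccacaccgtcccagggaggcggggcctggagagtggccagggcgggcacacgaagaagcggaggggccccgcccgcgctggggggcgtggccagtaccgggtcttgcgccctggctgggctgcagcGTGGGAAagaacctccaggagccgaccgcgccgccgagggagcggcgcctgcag

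The *Hes1* stretch held a full match at bases 92 to 98, with a further core at 107 to 112. The *Heyl* stretch held 1 match at bases 59 to 65, and the *Hey2* window held a match at bases 44 to 50 on one strand and at 247 to 253 on the other. RefSeq promoter windows were at hand for 7 of the 10 genes, and *Hey2* was the only 1 of these 7 with the full consensus or the core. Of all 32817 windows of 300 bases, 6.39% held the consensus and 25.6% the core.

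A second set shows the regions with the most extreme ratios. It has the 3 lowest and the 3 highest ratios among the member regions with at least 100 reads in either genotype, without a region in the 3' UTR of *Heyl*. The *Notch2* region was added after its values were seen, as the region with most WT reads among those at least 2-fold lower in TCKO. Sequences are on the plus strand of GRCm38, over the whole region or its central 200 bp. Capitals mark matches on either strand to the RBPJ core, Runt (TGTGGT or TGCGGT), AP-1 (TGANTCA), TEAD (GGAATG), the E-box CACGTG or the N-box CACNAG. The E-box and N-box are the letters that Hes and Hey proteins bind.
Lower, 3' flank of *Notch1* within *Sec16a* (chr2:26441799-26441963): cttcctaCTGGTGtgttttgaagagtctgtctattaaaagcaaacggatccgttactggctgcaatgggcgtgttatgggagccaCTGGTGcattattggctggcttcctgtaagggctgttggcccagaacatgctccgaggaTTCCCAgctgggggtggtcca
Lower, *Notch3* intron 2 (chr17:32160964-32161163): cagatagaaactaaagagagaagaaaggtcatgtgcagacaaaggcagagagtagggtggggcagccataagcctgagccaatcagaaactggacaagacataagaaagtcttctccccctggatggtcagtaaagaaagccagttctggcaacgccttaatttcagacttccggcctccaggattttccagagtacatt
Lower, *Notch2* intron 12 (chr3:98108571-98108770): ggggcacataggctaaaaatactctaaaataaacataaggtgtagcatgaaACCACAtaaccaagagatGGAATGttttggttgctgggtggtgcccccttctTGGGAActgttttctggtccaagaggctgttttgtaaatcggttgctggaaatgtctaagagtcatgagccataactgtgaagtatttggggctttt
Higher, *Notch3* intron 16 (chr17:32149289-32149478): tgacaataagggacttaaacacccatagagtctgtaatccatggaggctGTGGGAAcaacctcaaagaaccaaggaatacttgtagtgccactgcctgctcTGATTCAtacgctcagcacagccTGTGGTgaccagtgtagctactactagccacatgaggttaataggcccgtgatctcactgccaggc
Higher, 3' flank of *Heyl* within *Pabpc4* (chr4:123268222-123268421): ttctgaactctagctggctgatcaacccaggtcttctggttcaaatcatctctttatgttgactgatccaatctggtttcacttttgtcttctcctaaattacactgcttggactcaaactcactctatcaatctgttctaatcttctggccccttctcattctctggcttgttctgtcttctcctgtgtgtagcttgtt
Higher, 3' flank of *Jag1* within *Slx4ip* (chr2:137069086-137069285): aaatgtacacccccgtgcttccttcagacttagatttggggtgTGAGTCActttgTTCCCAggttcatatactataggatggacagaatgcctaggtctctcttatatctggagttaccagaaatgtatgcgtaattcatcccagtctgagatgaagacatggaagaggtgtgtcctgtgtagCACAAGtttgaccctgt

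The AP-1 letters stood in 2 of these 3 higher sequences and in 0 of the 3 lower ones, beside 23.6% of all regions. The higher set depended on the read cutoff, which was applied to unscaled counts. The *Notch1* region at 26531934 to 26532078, with 66 and 99 reads and a ratio of 1.29, just missed it and held no AP-1 letters. The *Jag1* region, with a ratio of 0.83, passed it and held them. The *Notch3* intron 16 region held RBPJ, AP-1 and Runt letters together. Such a match is a description of the letters, not of a bound factor. Since the sequences were chosen by their ratios, a link between letters and ratio was not tested.

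Across the 10 loci, 8 had fewer scaled reads in TCKO with an interval wholly below 0, and 0 had an interval above 0. Among all protein-coding loci the interval was wholly below 0 in 35.7% and wholly above 0 in 28.1%. An interval narrows with more reads, and the loci were not matched for read depth, so these shares do not compare like with like. The median ratio of the 10 loci was -0.19, against -0.02 over all loci, and the lowest and highest were -0.34 at *Notch2* and 0.05 at *Jag2*. This difference of -0.17 from the median of all loci was the same with TMM or size factor scaling. These lower every locus by about the same amount, so that the values of *Notch3* and *Jag2*, near 0, were then below 0, and with TMM the median of all loci was -0.096. In order of the ratio, *Notch2* came first, with an interval that did not overlap that of *Jag1*, next in line. From *Jag1* onward, through *Heyl*, *Hes1*, *Hey1*, *Notch1*, *Notch4*, *Hey2* and *Notch3* to *Jag2*, each locus had an interval that overlapped that of its neighbour. Per kb of covered region, WT reads ran from 711.1 at *Jag2* to 1769.7 at *Notch4*, and *Hes1* (1699.5), *Notch1* (1340) and *Jag1* (1176) lay in the upper part of that range.

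**Figure D1:**
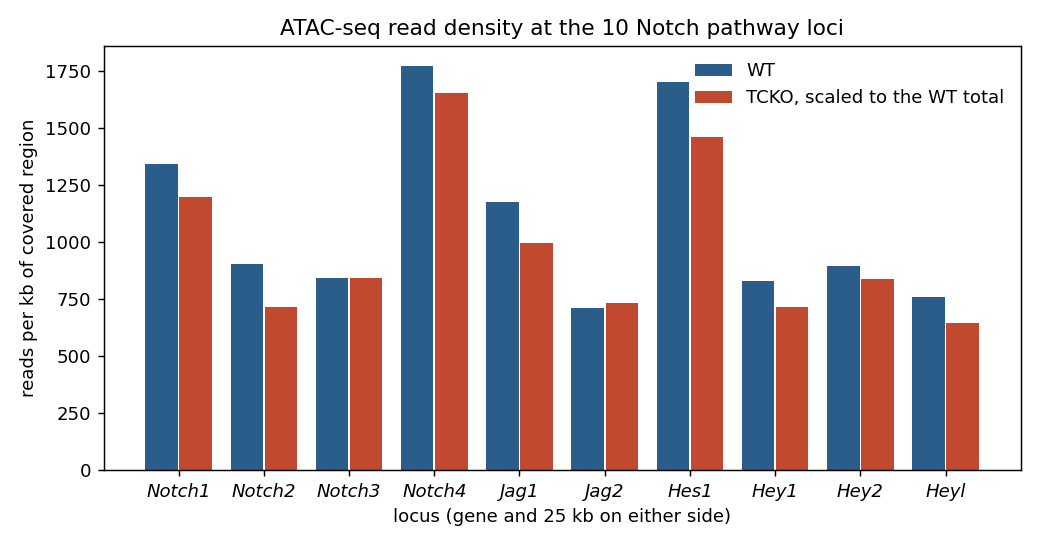
ATAC-seq reads per kb of covered region at the 10 Notch pathway loci, in WT (blue) and in TCKO scaled to the WT total (red), each from 1 merged column with no replicate error. The TCKO bar is the lower one at 8 loci, and at *Notch3* (841.4 and 843.9) and *Jag2* (711.1 and 734.4) it is slightly higher.

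Of the receptors, *Notch1* (ENSMUSG00000026923, chromosome 2, 26457903 to 26516663, minus strand) acts in cell fate decisions of many tissues. Its locus held 13071 reads in WT and 7102 in TCKO over 23 regions, a log2 ratio of -0.16 (-0.20 to -0.12), and 19 of the 23 regions lay below 0. The promoter at its main start (26503348 to 26504051) did not share in this, with 1074 and 649 reads and a ratio of -0.01 (-0.15 to 0.13). The promoter of an annotated start farther upstream (26515994 to 26516868) had 856 and 323 reads, a ratio of -0.69 (-0.87 to -0.50). Within the gene, intron 2 held a strong region at 26494323 to 26495010 with 1257 and 732 reads and a ratio of -0.06 (-0.19 to 0.07). Intron 2 also held the weak region at 26500148 to 26500248, with 110 and 32 reads and a ratio of -1.05 (-1.63 to -0.50).

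The flanks of *Notch1* showed the same mixture. The region with most reads at this locus, nearest to the start of *Sec16a*, had 4069 and 2323 reads, a ratio of -0.09 (-0.16 to -0.02). The *Sec16a* region printed above (26441799 to 26441963) had 150 and 27 reads, a ratio of -1.73 (-2.34 to -1.17), the lowest of all member regions with at least 100 reads in either genotype. On the other flank, 28.2 kb before the main start, 66 reads in WT stood against 99 in TCKO (26531934 to 26532078), a ratio of 1.29 (0.85 to 1.75). Of the 23 regions, 17 had *Notch1* as the nearest protein-coding start.

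*Notch2* (ENSMUSG00000027878, chromosome 3, 98013527 to 98150361, plus strand), the receptor whose gain-of-function alleles cause Hajdu-Cheney syndrome with loss of bone, had the lowest ratio of the 10 loci. Its 46 regions held 15025 reads in WT and 7222 in TCKO, a ratio of -0.34 (-0.38 to -0.30). Of all protein-coding loci, 2.72% had a lower ratio. The promoter (98013148 to 98014373) held 1560 and 861 reads, a ratio of -0.14 (-0.26 to -0.02), so the locus lay lower than its promoter.

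The lower reads of *Notch2* lay in the gene body. Of 37 regions inside the gene and outside the promoter, 29 had a ratio below 0, their median was -0.46 and their summed ratio -0.38, beside a median of 0.07 over all 114033 regions inside protein-coding genes and outside promoters. The strongest region, in intron 2 (98056249 to 98057426), had 2311 and 1136 reads, a ratio of -0.31 (-0.41 to -0.20). In intron 9 (98101476 to 98102132) there were 691 and 207 reads, a ratio of -1.02 (-1.25 to -0.80). The intron 12 region printed above (98108323 to 98109019) had 727 and 179 reads, a ratio of -1.30 (-1.54 to -1.07), while its intron 11 neighbour (98106610 to 98107128) had 1471 and 718 reads and a ratio of -0.32 (-0.45 to -0.19). The ratio thus differed between the neighbouring intron 11 and intron 12 regions of the same gene, with intervals that did not overlap. From intron 18 on, 3 of 8 regions were below 0. From intron 5 on, the start of *Adam30* became the nearer one, and *Notch2* was nearest to 27 of the 46 regions. Those 27 summed to a ratio of -0.28.

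*Notch3* (ENSMUSG00000038146, chromosome 17, 32120820 to 32166852, minus strand), best known from vascular mural cells, had 6936 reads in WT and 4231 in TCKO over 27 regions, a ratio of 0.00 (-0.05 to 0.06). With 18 of its 27 regions above 0, it was the receptor with the largest share of regions on the higher side. Promoter regions held 309 and 219 reads, a ratio of 0.22 (-0.03 to 0.47). The single regions spread widely around this level. Intron 16 (32149289 to 32149478) had 68 and 121 reads, a ratio of 1.53 (1.12 to 1.98), and intron 2 (32160940 to 32161188) had 149 and 35 reads, a ratio of -1.36 (-1.90 to -0.84). Downstream of the gene 418 and 132 reads gave -0.94 (-1.23 to -0.66) at 32106218 to 32106694, and the region with most reads, 2130 and 1334 at 32117221 to 32118368, gave 0.04 (-0.06 to 0.14).

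*Notch4* (ENSMUSG00000015468, chromosome 17, 34564268 to 34588503, plus strand) is a receptor known from endothelial cells. Its promoter had the fewest reads per kb in WT of the 9 promoters, with 59 reads in WT and 55 in TCKO (34564231 to 34564424), a ratio of 0.61 (0.09 to 1.14). The 25 kb window nevertheless held 7700 and 4373 reads over 10 regions, a ratio of -0.10 (-0.15 to -0.05). Most of them lay nearer to other genes, since *Notch4* was the nearest gene for 3 of the 10 regions and the region with most reads, 4106 and 2183, lay closest to *Rnf5*. The 3 nearest regions alone gave a ratio of 0.26, and shrinking the window to 2 kb around the gene gave 0.022, so the direction at *Notch4* was set by which regions were summed. Of the 6 endothelial marker promoters, *Cdh5* (57 and 74 reads, ratio 1.08), *Pecam1* (185 and 221, ratio 0.97), *Kdr* (399 and 346, ratio 0.51) and *Sox17* (51 and 34, ratio 0.13) were above 0. *Erg* (744 and 335 reads) had a ratio of -0.43 and *Tek* (339 and 162) of -0.35. Their part in the *Notch4* promoter value was not tested.

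**Figure D2:**
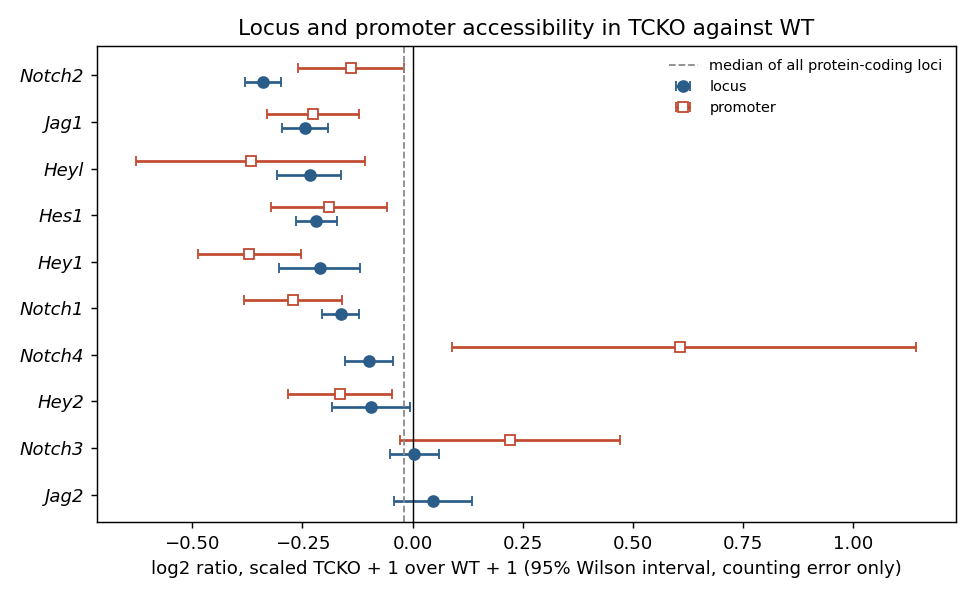
Log2 ratio of TCKO over WT for each locus (blue points) and for the promoter regions of the gene (open red squares), with 95% Wilson intervals, the genes ordered by the locus ratio and the dashed line at the median of all protein-coding loci (-0.02). Of the 9 genes with a promoter region, the *Notch3* and *Notch4* promoters lie to the right of 0 and the other 7 to the left.

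The intervals of the 2 ligand loci did not overlap. *Jag1* (ENSMUSG00000027276, chromosome 2, 137081456 to 137116644, minus strand) encodes a Notch ligand and is the gene most often mutated in Alagille syndrome. It had 8687 reads in WT and 4461 in TCKO over 23 regions, a ratio of -0.24 (-0.30 to -0.19). Its promoter held 2142 and 1114 reads (137116701 to 137117721), a ratio of -0.23 (-0.33 to -0.12). Inside the gene the 11 other regions had a median of 0.00 and a summed ratio of -0.05. In the 3' flank 5 of 7 regions were below 0. The region with most reads of the locus, within *Slx4ip* (137067437 to 137068273), had 2867 and 1285 reads, a ratio of -0.44 (-0.54 to -0.35). Just past the gene end, 474 and 179 reads gave -0.69 (-0.94 to -0.44) at 137080512 to 137081197. The *Slx4ip* region at 137069064 to 137069308 went the other way, with 97 and 105 reads and a ratio of 0.83 (0.43 to 1.23). The ligand region at least 2-fold lower, 20.3 kb upstream of *Jag1* (137136840 to 137136953), rested on 27 reads and 1 read, a ratio of -3.40 (-6.58 to -1.50).

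*Jag2* (ENSMUSG00000002799, chromosome 12, 112907819 to 112929776, minus strand), a ligand needed for limb and palate development, was the member with the fewest reads per kb. Its 13 regions held 2681 reads in WT and 1684 in TCKO, a ratio of 0.05 (-0.04 to 0.13), and no region lay within 1 kb of a *Jag2* start. The 4 regions inside the gene were all above 0, from 0.46 to 0.96, but they were weak, with 231 and 222 reads in all and a summed ratio of 0.66. The region with most reads, 780 and 384 (112950262 to 112950929), had *Nudt14* as the nearest gene and a ratio of -0.30 (-0.48 to -0.13). A window of 50 kb turned the locus ratio to -0.11, and one of 2 kb gave 0.51.

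All 4 target loci had an interval below 0, with a median of -0.21. *Hes1* (ENSMUSG00000022528, chromosome 16, 30064384 to 30067796, plus strand), the repressor that is the classic direct target of RBPJ, had 10904 reads in WT and 5701 in TCKO over 13 regions. Its ratio was -0.22 (-0.26 to -0.17), and *Hes1* was the nearest gene for all 13. The promoter region (30065107 to 30065430), which holds the RBPJ letters printed above, had 1323 and 706 reads and a ratio of -0.19 (-0.32 to -0.06). The lowest ratios with many reads lay upstream of it. At 8.06 kb before the start (30056937 to 30057631) 1185 and 382 reads gave -0.91 (-1.08 to -0.75), and at 4.77 kb (30060384 to 30060757) 620 and 222 reads gave -0.76 (-0.99 to -0.54). The region between them (30059181 to 30059772) had 895 and 487 reads and a ratio of -0.16 (-0.32 to -0.002). Downstream, the region with most reads (30069524 to 30071013) had 2630 and 1566, a ratio of -0.03 (-0.12 to 0.06). Neither flank of *Hes1* was uniform, since a region 17.8 kb upstream (30047353 to 30047758) had 172 and 133 reads and a ratio of 0.34 (0.02 to 0.67). A weak region 18.4 kb past the start (30083701 to 30083851) had 45 and 14 reads and a ratio of -0.94 (-1.82 to -0.11).

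*Hey1* (ENSMUSG00000040289, chromosome 3, 8663359 to 8667256, minus strand), a repressor induced by both Notch and BMP signals in osteoblasts, had 2745 reads in WT and 1443 in TCKO over 8 regions, a ratio of -0.21 (-0.30 to -0.12). Most of them lay in the promoter region (8666688 to 8668179), where 1826 and 859 reads gave -0.37 (-0.49 to -0.25), the lowest of the 9 promoters together with that of *Heyl*. The coding exon 5 region (8664608 to 8664909) had 503 and 301 reads, a ratio of -0.02 (-0.23 to 0.18). The promoter thus lay below this exon, and their intervals did not overlap.

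*Hey2* (ENSMUSG00000019789, chromosome 10, 30832359 to 30842801, minus strand), a repressor known from heart and artery development, had 2810 reads in WT and 1601 in TCKO over 7 regions, a ratio of -0.09 (-0.18 to -0.01). Its promoter (30842174 to 30843299) held 1649 and 895 of them, a ratio of -0.16 (-0.28 to -0.05). Flank regions with few reads were higher in TCKO, for example 80 and 79 reads at 30843878 to 30844014, a ratio of 0.69 (0.25 to 1.15). A window of 50 kb turned the locus ratio to 0.0078.

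*Heyl* (ENSMUSG00000032744, chromosome 4, 123233556 to 123249875, plus strand), a repressor expressed with *Notch3* in smooth muscle cells, had 4445 reads in WT and 2299 in TCKO over 16 regions, a ratio of -0.23 (-0.31 to -0.16). Inside the gene all 5 regions outside the promoter were below 0, with a summed ratio of -0.74. Of these, intron 1 held 1079 and 427 reads at the region with the RBPJ letters (123239276 to 123240091), a ratio of -0.62 (-0.78 to -0.46). Nearby in intron 1, 241 and 58 reads gave -1.33 (-1.75 to -0.93) at 123237910 to 123238226, and 177 and 52 reads gave -1.04 (-1.49 to -0.61) at 123237457 to 123237643. The 3' UTR region (123249119 to 123249479) had 199 and 43 reads, a ratio of -1.48 (-1.97 to -1.02).

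The promoter of *Heyl* (123233548 to 123234061) had 367 and 173 reads, a ratio of -0.37 (-0.63 to -0.11). The flanks did not follow. At 13.6 kb upstream (123219846 to 123220156) 306 and 234 reads gave 0.33 (0.08 to 0.58), and within *Pabpc4* (123268151 to 123268494) 58 and 103 reads gave 1.53 (1.08 to 2.01). The locus ratio of *Heyl* therefore depended on the window, and was -0.68 with 2 kb around the gene.

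**Figure D3:**
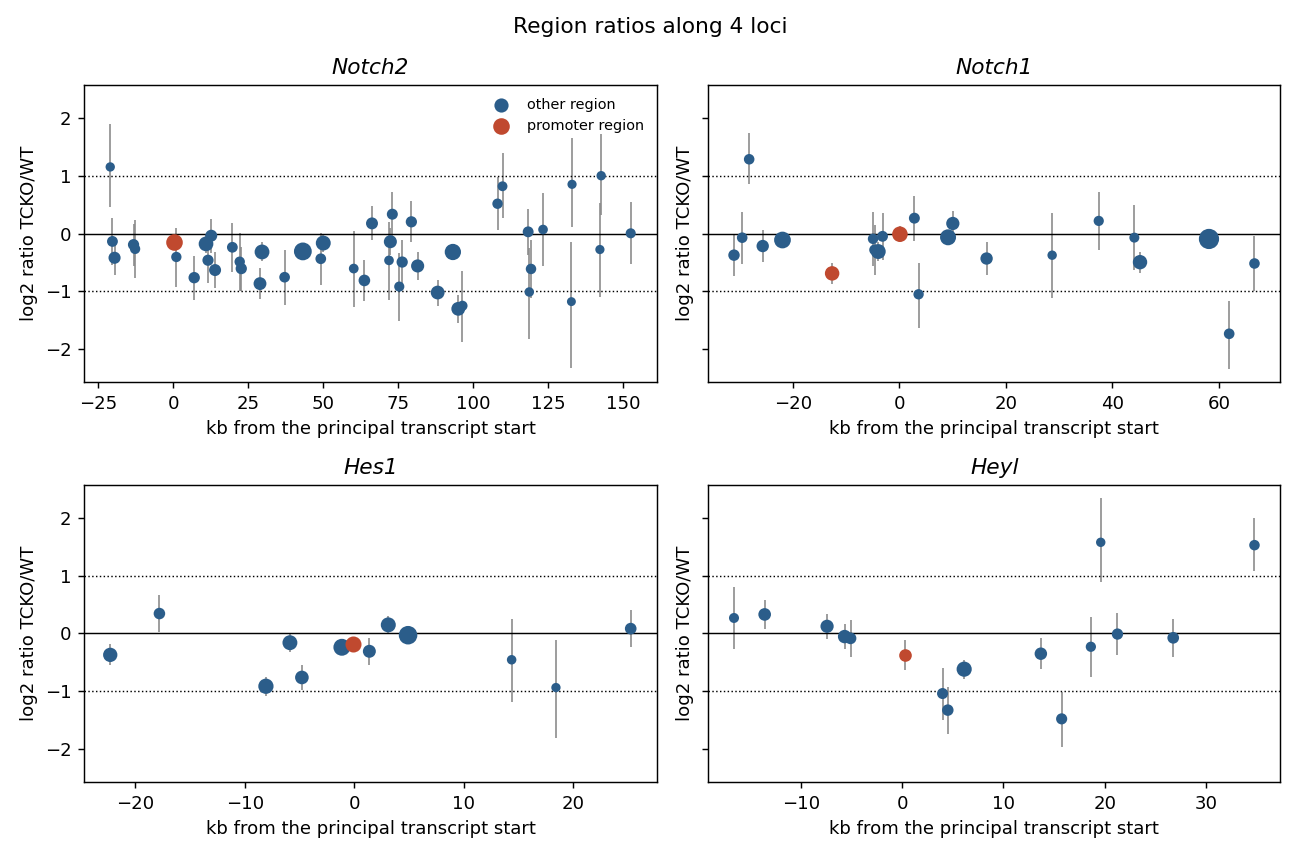
Log2 ratio of each region against the distance in kb of its midpoint from the principal transcript start at *Notch2*, *Notch1*, *Hes1* and *Heyl* (positive values lie in the direction of transcription), with 95% Wilson intervals as grey lines, larger points for more reads, promoter regions in red and dotted lines at a 2-fold change. The regions of *Notch2* past 2-fold lower lie from 88.3 kb into the gene onward, those of *Heyl* inside the gene, and no region of *Hes1* passes 2-fold.

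Region by region, 12 of the 186 member regions (6.45%) had a ratio of -1 or less, that is a 2-fold lower value in TCKO, beside 4.51% of all regions. At least 2-fold higher were 9 (4.84%), beside 12.3% of all regions. With TMM scaling these counts were 14 and 6, beside 5.52% and 10.9% of all regions. The median of the 186 was -0.14 and 115 of them (61.8%) were below 0, against a median of 0.06 and 45.4% over all regions. Among receptors 8 of 106 regions were lower and 5 higher, among ligands 1 of 36 and 0, and among targets 3 of 44 and 4. The member regions were also deeper and richer in GC than the rest, with a median of 150.5 WT reads against 86 and 53% GC against 48%. Removing the trend of the ratio with read count left the member median at -0.15 beside 0.01 over all regions, and left 5 regions at least 2-fold higher, beside 9.72% of all regions.

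**Figure D4:**
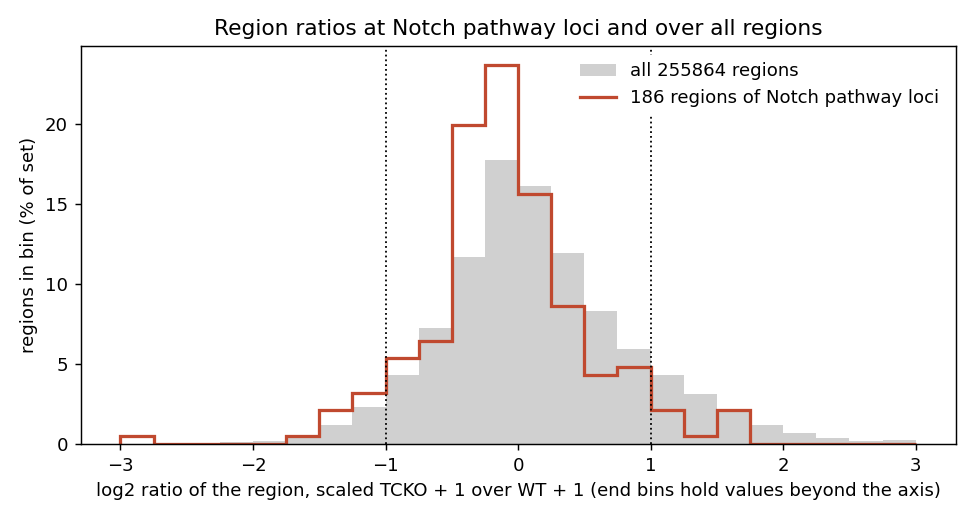
Share of regions, in percent, in bins of 0.25 of the log2 ratio, for the 186 regions of Notch pathway loci (red outline) and all 255864 regions (grey), with dotted lines at a 2-fold change. The bin from -0.50 to -0.25 holds 19.9% of the member regions and 11.7% of all regions, and the bin from 0.50 to 0.75 holds 4.30% and 8.32%.

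The lower regions lay mostly inside the genes, chiefly *Notch2* and *Heyl*. Of 82 member regions within the principal transcript and outside promoters 10 were at least 2-fold lower (12.2%, beside 5.17% of all regions within genes and outside promoters), with a median of -0.23. Of these 10, 5 lay in *Notch2*, 3 in *Heyl*, 1 in *Notch1* and 1 in *Notch3*. *Notch2* alone gave 37 of the 82 regions, so the pooled values are not a trait of every member. Of 93 regions before or past the transcript 2 were lower (2.15%) and 7 higher (7.53%), with a median of -0.08, beside 4.83% and 13.2% of all regions outside promoters. Of the 11 promoter regions 0 were 2-fold lower and 0 higher, and their median was -0.16, beside -0.07 for all 22795 promoter regions, of which 1.27% were lower and 2.71% higher. Regions nearest to the start of another gene held 6 of the 12 lower ones, 5 of them in *Notch2*. That is 6 of 45 such regions (13.3%). Of the 141 regions nearest to the member 6 were lower (4.26%) and 7 higher (4.96%), beside 4.51% and 12.3% of all regions. The larger share of lower regions at these loci was thus not seen in the regions nearest to the members.

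The peak lists were read beside the counts. A region had a summit called only in WT in 65 of 186 cases (34.9%), beside 33.0% of all regions, and only in TCKO in 12 cases (6.45%), beside 10.2%. A summit in both lists was found for 109. All 11 promoter regions had summits in both. Their highest fold enrichment over the local background was 9.56 in WT, at the upstream *Notch1* promoter (6.84 in TCKO), and 8.62 in TCKO, at *Hey2* (8.43 in WT). Of the 12 lower regions, 10 had a summit in WT only, and the 2 with a summit in both were those in introns 9 and 12 of *Notch2*. Peaks and counts come from the same reads, so a missing TCKO summit at a lower region is not separate evidence. A region with a summit in WT only entered the table through the WT list alone, and the same holds for TCKO. The counts of lower and higher regions therefore depend in part on how the table was made.

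Consensus letters were counted in the central 200 bp of each region, on both strands. RBPJ letters (GTGGGAA) were present in 20 of the 186 member regions (10.8%) and in 5.07% of all regions, and the core in 32.8% and 20.8%. Member regions were richer in GC (median 53% against 48%), and no share of letters given here was matched for GC or for promoters. Every full match also holds the core. The 20 regions had a median ratio of -0.22, against -0.10 for the other member regions, and over all regions these medians were 0.01 and 0.07. Of the 20 regions 15 were below 0, beside 61.8% of the 186 member regions. None of the 12 lower regions held the full RBPJ letters, while 4 held the core. Runt letters, bound by RUNX2, stood in 23.1% of member regions and 24.5% of all regions. Member medians were -0.20 with and -0.13 without them, and over all regions 0.06 and 0.06. AP-1 letters stood in 16.7% of member regions and 23.6% of all, and in 0 of the 12 lower regions. Of the 9 higher regions, those in *Notch3* intron 16, 20.9 kb upstream of *Notch2* and 16.2 kb upstream of *Hey2* held AP-1 letters. The rest of the higher regions did not. Member regions with AP-1 letters had a median of 0.22, against -0.19 without, and over all regions these medians were 0.42 and -0.02. TEAD letters were found in 18.3% and 16.3%, the E-box in 4.30% and 3.44%, and the N-box in 37.1% and 38.9%.

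The rest of the pathway was described with a list of 46 genes. Their loci had a median ratio of -0.07, with 32 of the 46 below 0. The interval was wholly below 0 at 23 (50%) and wholly above 0 at 9 (19.6%), beside 35.7% and 28.1% of all protein-coding loci. These shares, too, were not matched for read depth. By class, the interval was below 0 at 2 of 5 other ligands, 4 of 9 cleavage enzymes, 2 of 5 glycosylation enzymes, 7 of 11 nuclear cofactors, 6 of 12 genes of endocytosis and turnover and 2 of 4 other targets. It was above 0 at 1, 1, 1, 2, 3 and 1 of them. With so few genes in a class, shares such as 2 of 5 are near that of all loci. The lowest ratio was at *Poglut1*, which adds O-glucose to Notch, with 2966 and 1412 reads and a ratio of -0.35 (-0.44 to -0.26). *Rbpj* itself, the DNA-binding partner of Notch, had 15535 and 7925 reads over 57 regions and a ratio of -0.25 (-0.29 to -0.21). The highest were *Dtx1*, a Deltex ubiquitin ligase (1334 and 917 reads, 0.18, interval 0.06 to 0.30), *Maml1*, a Mastermind coactivator (5264 and 3602 reads, 0.17, interval 0.11 to 0.23), and the histone deacetylase *Hdac1* (4071 and 2756 reads, 0.15, interval 0.08 to 0.22). By these locus sums, genes of the RBPJ complex lay on either side of 0. Their promoter regions alone did not show this split, with ratios of -0.14 at *Rbpj*, -0.05 at *Maml1* and -0.01 at *Hdac1*. The promoter of *Dtx1* was at -0.27. With TMM scaling the median of the list was -0.15.

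**Figure D5:**
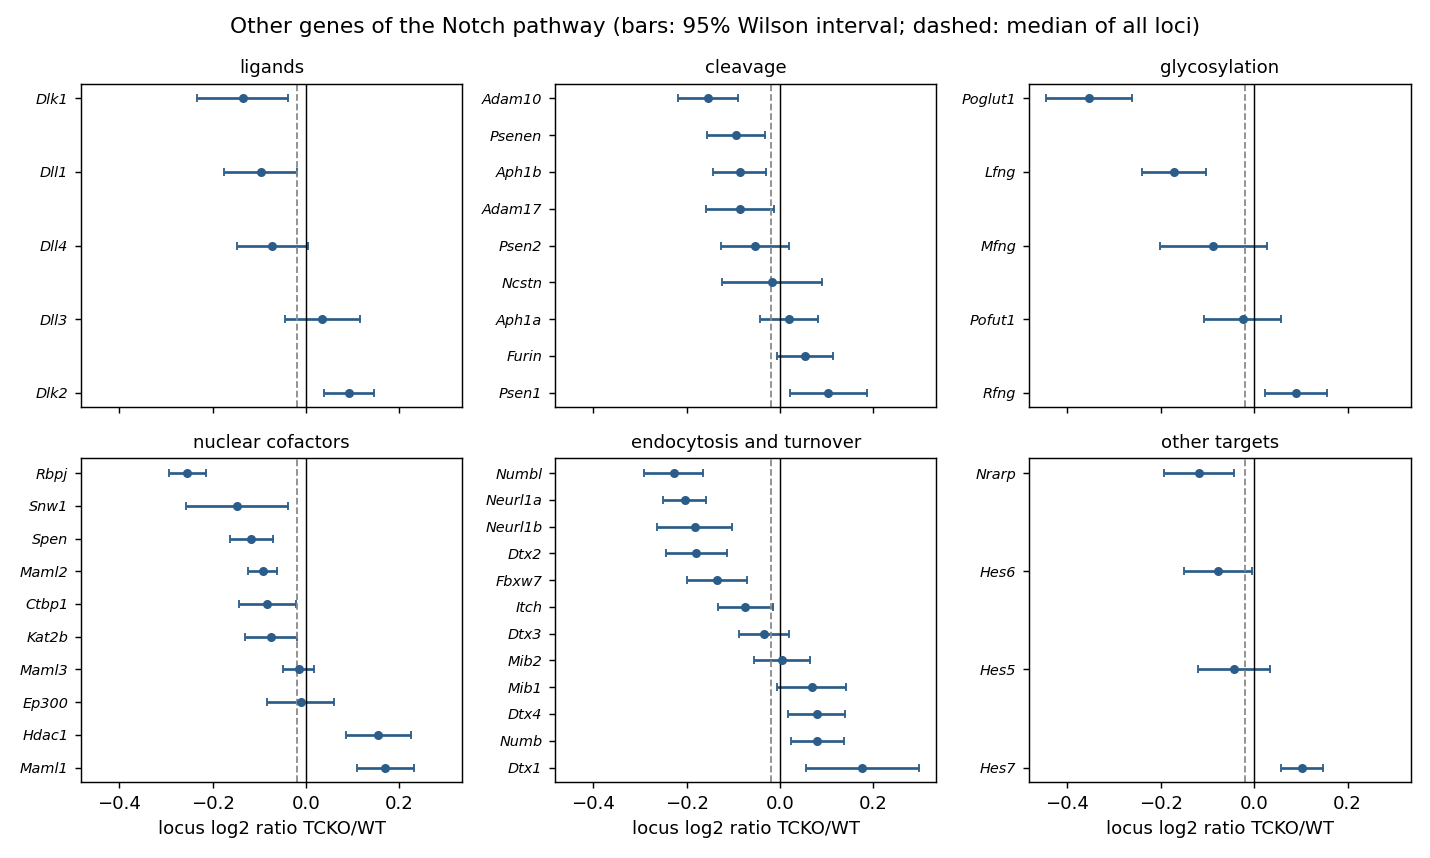
Locus log2 ratio of TCKO over WT for 45 of the 46 other genes of the Notch pathway in 6 classes, each point with its 95% Wilson interval, the solid line at 0 and the dashed line at the median of all protein-coding loci (-0.02). *Poglut1* (-0.35) and *Rbpj* (-0.25) are the lowest, and *Dtx1* (0.18) and *Maml1* (0.17) the highest.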

How the data were processed

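ATAC-seq libraries of WT and TCKO osteoblasts, 2 samples per genotype by the labels, were analysed. A protocol text of the labels speaks of 3 repeats, and the number of libraries in each column is therefore not certain. Per the methods and the submitters' processing notes, the authors aligned reads to GRCm38 with STAR 2.7.0e, kept unique reads with fewer than 3 mismatches, merged replicates and called peaks with MACS2. Removal of duplicates and a shift for the transposase were not stated, and retained duplicates would inflate single regions. The authors deposited raw read counts per region from bedtools multicov, 1 merged column per genotype. The deposited peak lists give the fold of each summit over its local background, a ratio, and the −log10 of a p-value and q-value.

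Members, gene lists, consensus letters and alternatives were chosen with earlier results of these data known. Each ratio was log2((scaled TCKO count + 1)/(WT count + 1)). Loci summed the regions overlapping a gene and 25 kb on either side, and promoter regions had a midpoint within 1 kb of a protein-coding start. Named regions were the promoters, the region with most reads of each locus, and the 3 lowest and 3 highest ratios with at least 100 reads in the genotype with more. From the list of 46 genes, the 3 lowest and 3 highest loci with at least 500 reads were named, except 1 that is not reported here, like 1 sequence. A base-level match to RefSeq sequence used GRCm38.p6. Alternatives were TMM (edgeR 4.0.16, R 4.3.3), size factors (DESeq2 1.42.0), no scaling, depth from the background of the peak caller, loess (statsmodels 0.14.6), other folds, counts, windows and q-values. Ratios, intervals and locus sums were tested on simulated data. Python 3.11.15, numpy 2.4.6, pandas 2.3.3, scipy 1.17.1 and pysam 0.24.0 were used.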

Additional observations from a re-analysis of the deposited data

How the results depend on the processing

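No paired analysis was possible because each genotype has 1 merged column of counts, and for the same reason no replicate could be left out and no edgeR or DESeq2 test was run. TCKO counts were multiplied by 1.64 in the report, by 1.56 with TMM, by 1.57 with size factors and by 1.08 with the background of the peak caller. The median of all regions was 0.06, -0.01, 0.00 and -0.54 in turn, and -0.64 unscaled. A factor moves all loci alike, so the ratios were lower by construction under each alternative, and the median of the 10 loci minus that of all loci was -0.17 under each. The window moved the ratios of single loci relative to each other, and the depth of weak regions leaves intervals of 1 log2 unit or more.

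With TMM the locus ratio was -0.24 at *Notch1*, -0.42 at *Notch2*, -0.072 at *Notch3*, -0.17 at *Notch4*, -0.32 at *Jag1*, -0.29 at *Hes1* and -0.31 at *Heyl*, the median of member regions -0.21 and that of the 46 other loci -0.15. With size factors it was -0.23 at *Notch1*, -0.40 at *Notch2*, -0.061 at *Notch3*, -0.16 at *Notch4*, -0.31 at *Jag1* and -0.28 at *Hes1*, and -0.14 for the other loci.

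Without scaling, the loci of *Notch1*, *Notch2*, *Notch3* and *Notch4* were at -0.88, -1.06, -0.71 and -0.82, *Jag1* and *Jag2* at -0.96 and -0.67, and *Hes1*, *Hey1*, *Hey2* and *Heyl* at -0.94, -0.93, -0.81 and -0.95. Promoters were at -0.99, -0.86 and -0.49 for *Notch1* to *Notch3*, -0.94 for *Jag1*, and -0.91, -1.09, -0.88 and -1.08 for *Hes1*, *Hey1*, *Hey2* and *Heyl*, and *Notch4* reversed to -0.10. There were 65 lower and 1 higher regions, beside 25.6% and 3.17% of all regions, with medians of -0.86 for member regions and -0.79 for other loci.

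With the peak caller background, loci in the same order were at -0.77, -0.95, -0.60 and -0.71, at -0.85 and -0.56, and at -0.83, -0.82, -0.70 and -0.84. Promoters were at -0.88, -0.75, -0.39 and 0.0069 for the receptors, -0.83 for *Jag1* and -0.80, -0.98, -0.77 and -0.97 for the targets. There were 48 lower and 1 higher regions, beside 19.9% and 3.91% of all regions, with medians of -0.75 and -0.68.

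With a window of 2 kb, *Notch4* reversed to 0.022, and *Notch1* was at -0.21, *Notch3* at 0.20, *Jag1* at -0.17, *Jag2* at 0.51, *Hes1* at -0.10 and *Heyl* at -0.68, with 2 higher regions. With 50 kb, *Hey2* reversed to 0.0078, and *Notch1* was at -0.091, *Notch2* at -0.30, *Notch3* at -0.063, *Notch4* at -0.039, *Jag2* at -0.11 and *Hey1* at -0.094, with 19 higher regions. With regions nearest to the member alone, *Notch4* reversed to 0.26, *Notch2* was at -0.28 and *Jag2* at 0.23, with 6 lower regions. The number of regions also changed with these settings, so such counts are not shares. The cause of the shifts was not tested.

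A fold of 1.5 gave 32 lower and 23 higher regions, and a fold of 3 gave 2 and 1. Loess and 10 added counts each gave 5 higher regions. At a −log10 q of at least 5, 39 regions had a summit in WT only and 5 in TCKO only, and at 10 these were 35 and 2. For these folds and q cutoffs the shares over all regions are not given here. The counts therefore do not compare the member regions with the rest. Promoters were also taken within 2 kb (9 genes) and within 500 bp (8 genes, where *Jag1* has no region). The ratio cannot move where the same regions are summed, as at *Notch1*, *Notch4*, *Hey1* and *Heyl* under both settings. Those that moved stayed within their intervals. At 2 kb *Notch2* was at -0.15, *Notch3* at 0.26, *Hes1* at -0.23 and *Hey2* at -0.08, and at 500 bp *Notch3* was at 0.08.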
